A study of Homo sapiens with 6 samples.

Results

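The tubulin isotypes are described here by the 21 array probes of 10 genes: TUBB, TUBB2A, TUBB2B, TUBB3, TUBB6, TUBA1A, TUBA1B, TUBA1C, TUBA4A and TUBG1. The members were chosen by gene name, as every probe that carries one of these names in the scanner files, out of 41000 non-control probes on the array. There were 4 alpha-tubulin genes with 10 probes, 5 beta-tubulin genes with 10 probes, and the gamma-tubulin gene TUBG1 with 1 probe. The study hybridized pairs of RNAs, one in Cy3 and one in Cy5, to Agilent Whole Human Genome arrays to ask how the transcripts of ovarian cancer cells change when the level of the focal adhesion protein Hic-5 (gene TGFB1I1) is changed. In SKOV3 cells, an ovarian adenocarcinoma line, the clones sh-S1 and sh-S2 are stable puromycin-selected transductants of a lentiviral shRNA against Hic-5, and both were hybridized against 1 Ctrl clone that is labelled mock-transfected and was made, per the protocol, with a scramble sequence in the same vector. In A2780s cells, another ovarian adenocarcinoma line, 1 stably transfected clone carrying Hic-5 in a pCMV vector (pCMV-Hic-5) was hybridized against 1 neomycin-selected Ctrl clone carrying the empty vector. Each pair of RNAs was hybridized on 2 arrays with the dyes exchanged, which gave 4 arrays and 2 clones in SKOV3 and 2 arrays and 1 clone in A2780s. All ratios below are log2 of modified clone over Ctrl. Each clone is a single selected line, so clone and construct cannot be told apart, and the labels do not tell which of the shRNAs a clone carries.

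Alpha-tubulin and beta-tubulin form the heterodimer from which microtubules are built, and gamma-tubulin sits in the ring complex from which they grow. The isotypes of each kind are separate genes whose proteins are very alike and differ mostly in their C-terminal tails, where motors, microtubule-associated proteins and modifying enzymes act. TUBA1A, TUBA1B and TUBA1C lie beside each other on chromosome 12 and are broadly expressed, TUBA4A is the alpha isotype whose gene already encodes a tail without the final tyrosine, TUBB is the main beta isotype of many dividing cells, TUBB2A, TUBB2B and TUBB3 are best known from neurons, and TUBB6 is expressed in many non-neuronal tissues. In ovarian cancer the beta isotypes are studied because beta-tubulin is the target of taxanes, and TUBB3 in particular has been examined as a marker of response.

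The isotypes share long stretches of coding sequence, and some of the probes lie in such stretches. Among the alpha probes, A_23_P154070 of TUBA4A and A_23_P128154 of TUBA1C lie partly in the same shared stretch. The pair below is an example from the beta probes, aligned without gaps, with the differing bases in capitals. The sequences are those of the array files, and the positions are those the files give on the build hg19 for the whole probe of 60 bases. TUBB2A (chr6:3154400-3154459, minus strand) and TUBB4B (chr9:140137646-140137705, plus strand), a beta isotype outside the 10 genes, overlap over all 60 bases with 10 differences.
TUBB2A A_23_P501276: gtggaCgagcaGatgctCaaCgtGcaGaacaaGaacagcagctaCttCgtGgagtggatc
TUBB4B A_23_P312863: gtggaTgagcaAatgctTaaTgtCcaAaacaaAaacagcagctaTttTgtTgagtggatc
The probe of TUBA4A whose ratio was lowest of the 21 (chr2:220115070-220115129, minus strand) is shown up to the stop codon, in capitals. It covers the end of the coding sequence, where alpha-tubulins differ from each other.
TUBA4A A_23_P154065: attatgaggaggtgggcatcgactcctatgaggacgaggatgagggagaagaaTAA

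Each printed stretch had a reading frame open to its end or to this stop. The array file lists transcripts of TUBB2B and TUBB4A beside that of TUBB2A for A_23_P501276, so this probe is not specific to TUBB2A by its own annotation. Whether RNA of one isotype bound the probe of another was not tested, and the ratio of a probe in a shared stretch is uncertain as the ratio of 1 gene.

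The Hic-5 transcript itself did not follow the SKOV3 labels. TGFB1I1 gave ratios of -0.16 and 0.12 on the arrays with sh-S1 in Cy5 and in Cy3 and of -0.12 and 0.28 with sh-S2 in Cy5 and in Cy3, with a mean of 0.03 ± 0.07 (SD, n = 2 clones; limma, adjusted p = 0.855), so below sh-S1 and sh-S2 stand for RNAs known by these labels alone. The probe was well above background in Ctrl on all 4 SKOV3 arrays and in each clone on both of its arrays, but its signal over background was 8.44 to 26.1 in Cy5 against 472 to 717 in Cy3. The offset of 50 added to each channel was larger than this Cy5 signal, which draws the ratios of the probe towards 0. Per the protocol, knockdown clones had been checked for Hic-5 by quantitative RT-PCR and Western blot, which are not analysed here. Its level was 8.23 on the log2 scale in SKOV3 Ctrl (7.79 to 8.56) and 12.78 in A2780s Ctrl (11.83 to 13.74). In A2780s its ratios were 4.05 and 2.60, both higher in pCMV-Hic-5. The Cy5 channel was weak on the SKOV3 arrays, with a median signal over background of 9.52 to 25.5 against 373 to 530 in Cy3, and 43.7% to 63.6% of non-control probes were well above background in Cy5 against 88.8% to 94.5% in Cy3. On the A2780s arrays the medians were 325 to 568 in either dye. Of 8 epithelial marker genes (keratins, EPCAM, CDH1, MUC1, ERBB2), 6 could be tested in SKOV3 and 5 were called lower in the clones, with the furthest ratio at -3.53 for KRT18. EPCAM and CDH1 were well above background in SKOV3 Ctrl on 2 of 4 arrays each. The list's summed linear level was 50000 to 68900 in SKOV3 Ctrl, 8750 to 11700 in sh-S1 and 7900 to 11500 in sh-S2. PAX8, a lineage marker of Mullerian epithelium, was called lower at -3.58, as 1 of 3 tested markers of its list of 4, and this list summed to 12100 to 17500 in Ctrl, 1680 to 1940 in sh-S1 and 1360 to 2160 in sh-S2. The other tested markers of this list, WT1 at -0.02 and MUC16 at 0.06, were not called. Of 6 fibroblast markers, 4 were tested and COL3A1 was called higher at 3.65, while PDGFRB was well above background in SKOV3 Ctrl on 0 of 4 arrays, and the list summed to 1330 to 1710 in Ctrl, 10500 to 14600 in sh-S1 and 6150 to 8880 in sh-S2. The other tested fibroblast markers, COL1A1 at -0.14, COL1A2 at 0.16 and DCN at 0.07, were not called. Of 6 leukocyte and endothelial markers, 2 were tested, 0 were called by limma and 0 were past an unadjusted p of 0.05, and their sum was 1170 to 1360 in these RNAs. Beside these marker counts, 4.16% of all tested SKOV3 probes were called lower and 2.98% higher. In the Mullerian and fibroblast lists the calls thus rested on 1 gene each. The part of these marker ratios in the tubulin ratios was not tested.

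In SKOV3, the alpha-tubulin transcripts were lower in both clones, furthest for TUBA4A, while most beta-tubulin probes fell by less than 2-fold and TUBG1 gave no call. Of the 21 probes, 19 probes of 9 genes were tested in SKOV3: TUBB2B was left out by the filter on dim probes and 1 TUBA1C probe for marked spots. All 19 were well above background in both RNAs on every array, so none entered through 1 group alone. A probe was called when its limma p, adjusted over all 24958 tested probes, was at most 0.05 and its mean ratio was at least 2-fold. By this rule 9 of the 19 probes, of 5 genes, were called lower, beside 4.16% of all tested probes, and 0 were called higher, beside 2.98%. At an unadjusted p under 0.05 in limma, 0 of the 19 were higher, beside 5061 of all 24958. At any fold, 17 of the 19 were lower past the adjusted p of 0.05, beside 16.2% of all tested probes. The median ratio of the 19 probes was -1.04 and that of all tested probes was 0.002. The test asks whether the mean of 2 clones differs from no change against 1 shared Ctrl RNA, so the spread of the Ctrl itself is not in it. The spread between the clones enters the p-values only after limma has moderated it towards that of all tested probes. For TUBB2A A_23_P19291, with an SD of 0.58, the standard error used was 0.19. For TUBB3 A_24_P258633, with an SD of 0.02, it was 0.09.

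**Figure D1:**
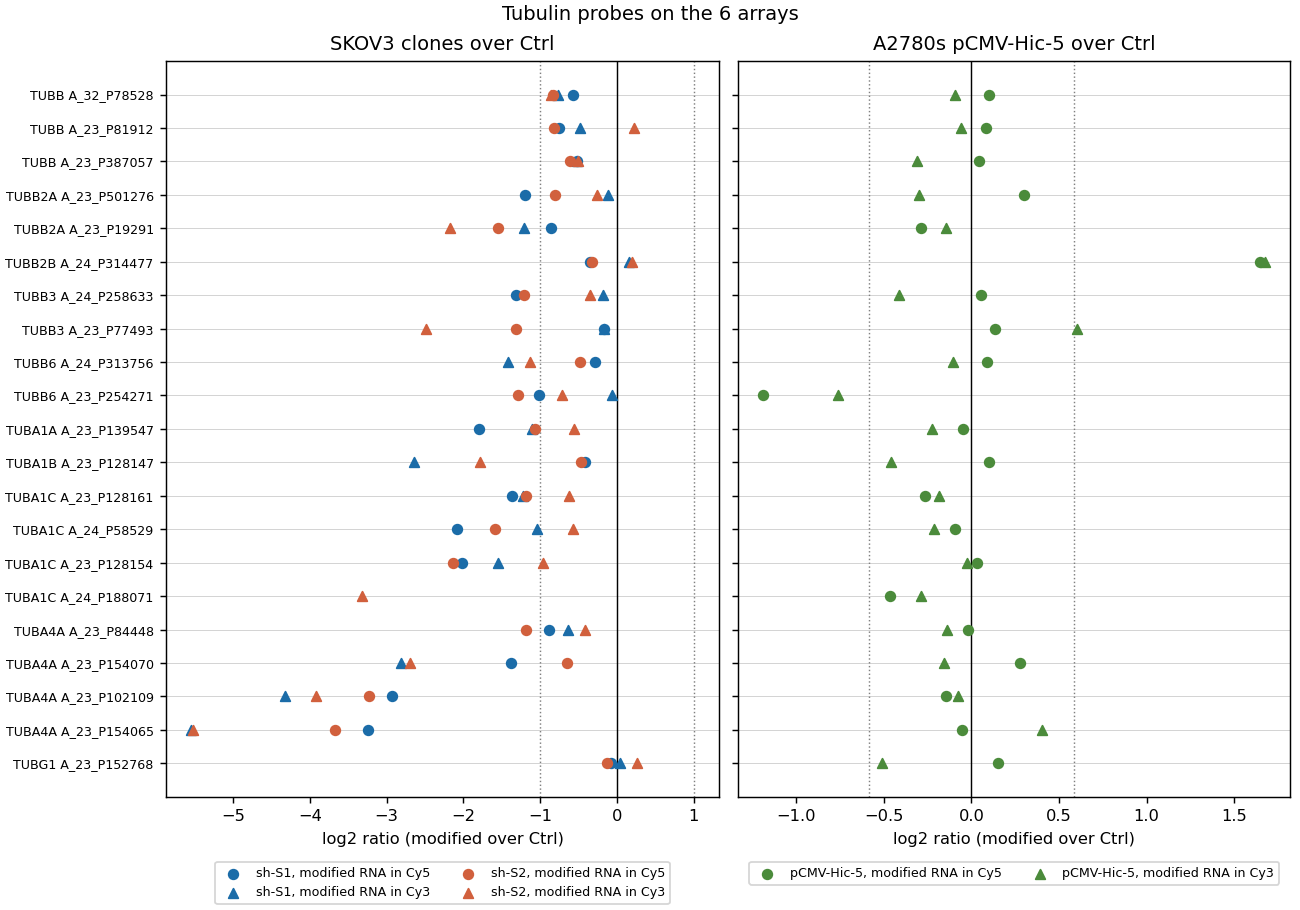
Log2 ratio of modified clone over Ctrl (horizontal axis) for each of the 21 tubulin probes (rows) on every array, SKOV3 on the left and A2780s on the right; circles are arrays with the modified RNA in Cy5, triangles with it in Cy3, and dotted lines mark 2-fold (left) and 1.5-fold (right). In SKOV3 the TUBA4A probes reach furthest below 0 and the TUBG1 probe lies around 0, and in A2780s the TUBB2B probe lies near 1.65 on both arrays.

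The alpha isotypes accounted for 8 of the 9 calls, among 9 alpha probes tested, and the beta isotypes for 1 among 9. The median ratio was -1.33 over the alpha probes and -0.77 over the beta probes, given as a description, since probes of 1 gene share their transcript. TUBA4A was the member with the lowest ratios. Its probe at the end of the coding sequence, A_23_P154065, gave -3.24 and -5.54 for sh-S1 and -3.67 and -5.52 for sh-S2 (clone in Cy5, then in Cy3, here and below). All 4 arrays were lower in the clones, and both arrays with the clone in Cy3 were lower than both with it in Cy5. The mean was -4.50 ± 0.14 (SD, n = 2 clones), a 22.5-fold lower signal (limma, adjusted p = 2.58e-06). A_23_P102109 gave -2.93 and -4.33 for sh-S1 and -3.24 and -3.92 for sh-S2. This was the next lowest probe of the 21 and was called as well, at -3.60 ± 0.04, which is 12.1-fold lower (limma, adjusted p = 2.8e-06). A_23_P154070 gave -1.38 and -2.82 for sh-S1 and -0.65 and -2.70 for sh-S2. It was called at -1.89 ± 0.30 (limma, adjusted p = 8.74e-05). A_23_P84448, upstream of the others, gave -0.88 and -0.64 for sh-S1 and -1.18 and -0.42 for sh-S2. All 4 arrays were lower, but its mean of -0.78 ± 0.03 was a 1.72-fold change and was not called (limma, adjusted p = 0.00109), though it passed 2-fold and was called with median centring, with processed signals and on the Cy5 arrays alone.

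TUBA1C, 1 of the 3 broadly expressed alpha isotypes on chromosome 12, was called by every one of its 3 tested probes. A_23_P128154 gave -2.01 and -1.55 for sh-S1 and -2.13 and -0.96 for sh-S2, with a mean of -1.66 ± 0.16 (limma, adjusted p = 6.73e-05). A_24_P58529 gave -2.08 and -1.04 for sh-S1 and -1.59 and -0.58 for sh-S2, with a mean of -1.32 ± 0.34 (limma, adjusted p = 0.000503). A_23_P128161 gave -1.37 and -1.23 for sh-S1 and -1.18 and -0.62 for sh-S2, with a mean of -1.10 ± 0.28 (limma, adjusted p = 0.000755). On these 3 probes all arrays were lower in the clones, and for the last the mean of sh-S2 alone, -0.90, was under 2-fold. The fourth probe, A_24_P188071, had its spot marked as uneven on 3 SKOV3 arrays and was not tested. Its unmarked array, with sh-S2 in Cy3, gave -3.32. With the marked spots kept, an alternative chosen after seeing the data, this probe gave -0.17 and -3.09 for sh-S1 and -0.50 and -3.23 for sh-S2, with a mean of -1.75 (limma, adjusted p = 5.22e-05), and it differed more between dyes than between clones.

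TUBA1A, the neighbouring alpha isotype, was measured by 1 probe, A_23_P139547, with -1.79 and -1.10 for sh-S1 and -1.07 and -0.56 for sh-S2. It was lower on all 4 arrays and was called at -1.13 ± 0.45 (limma, adjusted p = 0.00197). Without sh-S1 its mean was -0.81, under 2-fold. TUBA1B, the broadly expressed neighbour of both, gave -0.42 and -2.64 for sh-S1 and -0.46 and -1.79 for sh-S2 by its probe A_23_P128147. It was called at -1.33 ± 0.29 (limma, adjusted p = 0.000359), and the arrays split by dye: the mean was -0.44 with the clones in Cy5 and -2.22 with them in Cy3. The call of TUBA1B was lost on the Cy5 arrays alone.

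The beta isotypes were mostly lower by less than 2-fold. TUBB2A was the only beta gene with a called probe, A_23_P19291, which gave -0.85 and -1.22 for sh-S1 and -1.55 and -2.17 for sh-S2. Its mean was -1.45 ± 0.58 (limma, adjusted p = 0.00151), lower on all 4 arrays and lower in sh-S2 than in sh-S1 in either dye. The other TUBB2A probe, the one that the file also assigns to TUBB2B and TUBB4A, gave -1.20 and -0.12 for sh-S1 and -0.80 and -0.26 for sh-S2, a mean of -0.59 ± 0.09 that was not called (limma, adjusted p = 0.00395).

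TUBB, the main beta isotype of many cells, was measured by 3 probes, none of which was called. A_32_P78528 gave -0.57 and -0.76 for sh-S1 and -0.83 and -0.86 for sh-S2, with a mean of -0.76 ± 0.13. A_23_P387057 gave -0.52 and -0.52 for sh-S1 and -0.61 and -0.50 for sh-S2, with a mean of -0.54 ± 0.02. A_23_P81912 gave -0.76 and -0.48 for sh-S1 and -0.82 and 0.23 for sh-S2, with a mean of -0.46 ± 0.23. The first 2 probes were lower on every array and the last was higher on 1, and the adjusted p of the 3 in limma was 0.00162, 0.00528 and 0.0211. TUBB6 was lower on all 4 arrays by both probes. A_24_P313756 gave -0.29 and -1.42 for sh-S1 and -0.48 and -1.13 for sh-S2, and A_23_P254271 gave -1.02 and -0.07 for sh-S1 and -1.29 and -0.71 for sh-S2. The 2 TUBB6 probes thus moved in opposite directions with the dye, and their means of -0.83 ± 0.04 and -0.77 ± 0.32 were close and not called (limma, adjusted p = 0.000851 and 0.00455).

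TUBB3 was the member whose clones differed most. Its probe A_23_P77493 gave -0.17 and -0.17 for sh-S1 and -1.31 and -2.49 for sh-S2. The values of sh-S1 lay near 0 and those of sh-S2 were lower on both arrays, without overlap. The mean of -1.04 ± 1.22 (SD, n = 2 clones) was not called (limma, adjusted p = 0.0656). Without sh-S1 it was -1.90 and without sh-S2 it was -0.17. The difference of sh-S2 from sh-S1 was -1.14 with the clones in Cy5 and -2.32 with them in Cy3, 1 pair of RNAs each time, so it had no test. The other TUBB3 probe, A_24_P258633, for which the file also lists a transcript it gives for TUBB6, gave -1.32 and -0.19 for sh-S1 and -1.22 and -0.35 for sh-S2. Its clones were alike, with a mean of -0.77 ± 0.02 (limma, adjusted p = 0.00117), so the probes of TUBB3 disagree on whether the clones differ. Across the 19 tested probes the difference of sh-S2 from sh-S1 had a median of -0.09 in the Cy5 orientation and 0.21 in the Cy3 orientation, against -0.02 and -0.005 over all tested probes. It was higher in sh-S2 in both orientations for 4 probes and lower in both for 4.

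TUBG1, which encodes the gamma-tubulin that nucleates microtubules, gave -0.07 and 0.04 for sh-S1 and -0.13 and 0.27 for sh-S2. The arrays lay on both sides of 0, and the mean of 0.03 ± 0.06 was not called (limma, adjusted p = 0.882). TUBB2B, a beta isotype of neurons, could not be tested in SKOV3: its Ctrl RNA was well above background on 2 of 4 arrays and the clones on 1 of 4, and no fold is given.

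**Figure D2:**
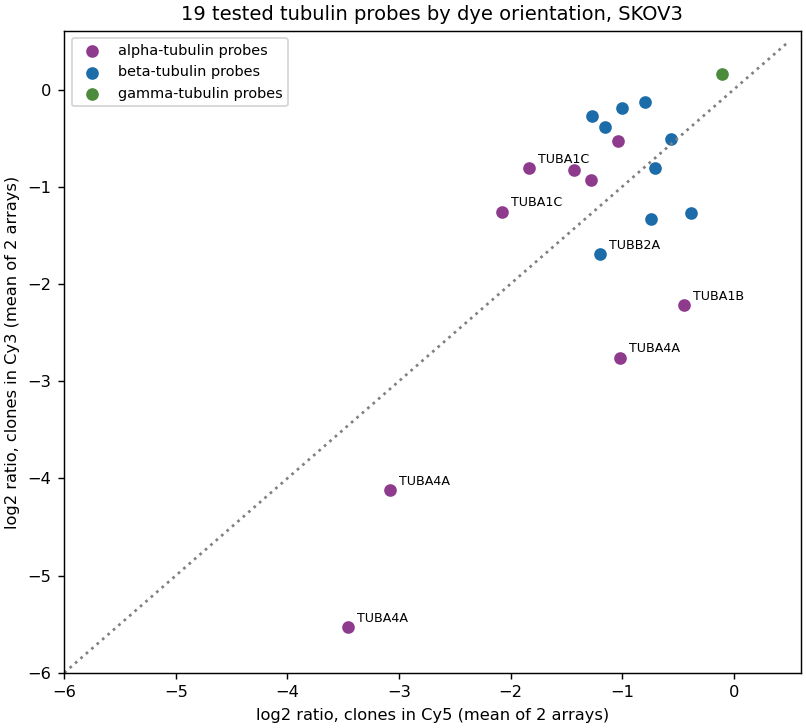
Mean log2 ratio of the 2 SKOV3 clones over Ctrl on the arrays with the clones in Cy5 (horizontal axis) and with the clones in Cy3 (vertical axis) for the 19 tested tubulin probes, coloured by kind of tubulin; the dotted line marks equal values and the probes far below 0 or far from the line are named. A pair of TUBA4A probes lies lowest in both orientations, and TUBA1B and the TUBA4A probes A_23_P154070 and A_23_P154065 lie far below the line.

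For 14 of the 19 probes the 2 dye orientations differed by more than the 2 clones did. How often this held over all tested probes was not counted, so it is not shown to be particular to the tubulins. With the clones in Cy5 the mean was below 0 for all 19 probes, and with them in Cy3 for 18, the exception being TUBG1. The median over all tested probes was 0.002 on the Cy5 arrays alone and -0.001 on the Cy3 arrays alone. The 2 lowest TUBA4A probes had means of -3.46 and -3.08 with the clones in Cy5 and of -5.53 and -4.12 with them in Cy3. TUBA1C A_23_P128154 went the other way, with -2.07 in the Cy5 orientation and -1.26 in the Cy3 orientation. The count of members called lower was 12 from the Cy5 arrays alone and 7 from the Cy3 arrays alone, and 0 members were called higher in either. Over all probes, 1152 were called lower and 859 higher from the Cy5 arrays alone. From the Cy3 arrays alone, 1390 were called lower and 1222 higher.

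Probes of 1 gene were set beside each other by their start in the transcript, as the files give it. For TUBA4A the mean SKOV3 ratio was -0.78 at base 786, -1.89 at base 1254, -3.60 at base 1302 and -4.50 at base 1379. On 3 of 4 arrays the ratios fell in this order, and with sh-S2 in Cy5 the first 2 exchanged places. For TUBA1C the mean was -1.10 at base 372, -1.32 at base 807 and -1.66 at base 1320, and the last of these was lower than the first on all 4 arrays. For TUBB2A it was -0.59 at base 1061 and -1.45 at base 1426, where the array with sh-S1 in Cy5 ran the other way (-1.20 and -0.85) and the first probe is the one also assigned to TUBB2B and TUBB4A. TUBB and TUBB6 had no such order: TUBB gave -0.76 at base 1334, -0.46 at base 1371 and -0.54 at base 1988, and TUBB6 gave -0.83 at base 1597 and -0.77 at base 2076. TUBB3 gave -0.77 at base 1198 and -1.04 at base 1700, but its clones ran opposite ways. These were -0.75 and then -0.17 for sh-S1, and -0.78 and then -1.90 for sh-S2. The part of the probe's place in these ratios was not tested.

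**Figure D3:**
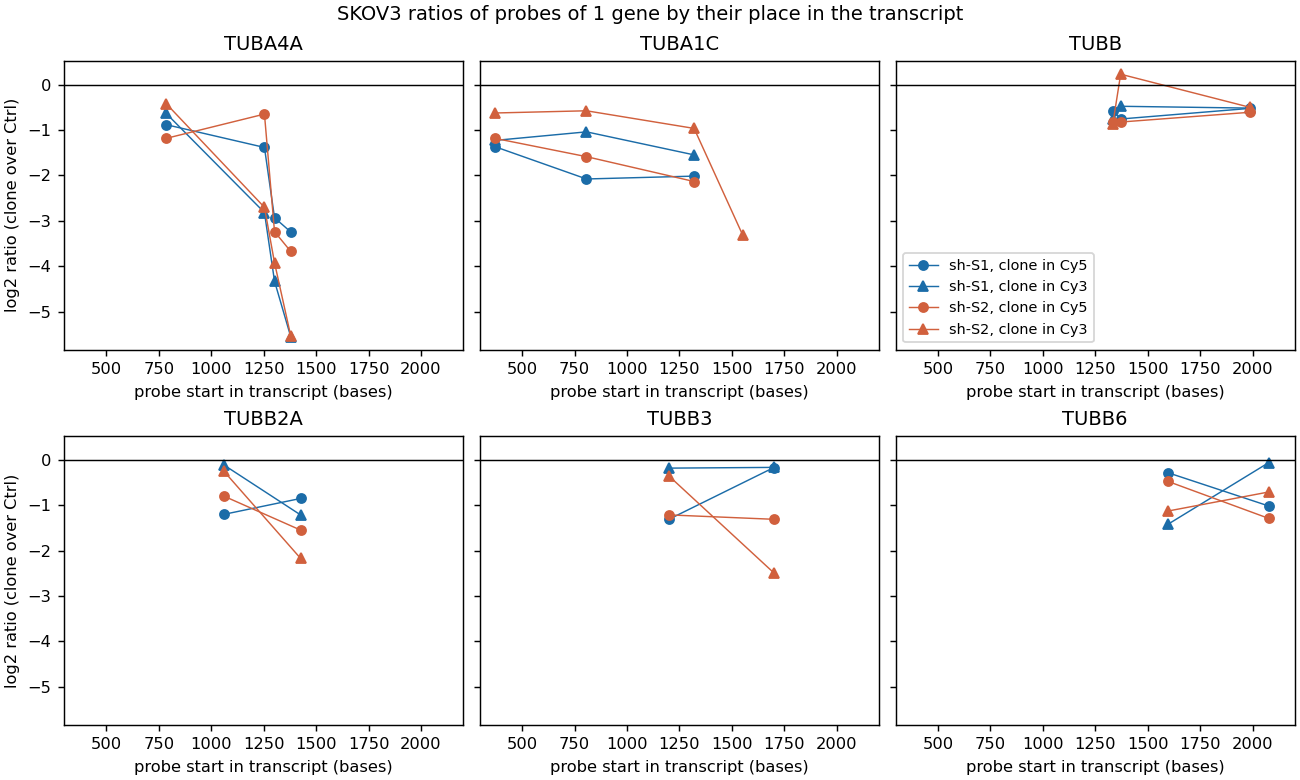
Log2 ratio of SKOV3 clone over Ctrl (vertical axis) against the start of the probe in its transcript in bases (horizontal axis) for the 6 tubulin genes with more than 1 probe; blue is sh-S1, orange sh-S2, circles are clones in Cy5 and triangles clones in Cy3. The TUBA4A values fall from between -0.42 and -1.18 at base 786 to between -3.24 and -5.54 at base 1379, while the TUBB values stay between -0.86 and 0.23.

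In A2780s, TUBB2B was higher in pCMV-Hic-5 and the other isotypes stayed within 1.5-fold of Ctrl, except 1 of the 2 TUBB6 probes. The line had 1 clone, so there was no test, and a probe counted when its mean was past 1.5-fold with the same direction on both arrays. By this rule 1 of the 21 probes was higher, beside 3.26% of 30531 probes, and 1 was lower, beside 1.32%. TUBB2B gave 1.65 with pCMV-Hic-5 in Cy5 and 1.68 with it in Cy3, a mean of 1.66 or 3.17-fold. Both arrays gave nearly the same value, and the probe was well above background in both RNAs on both arrays. The TUBB2A probe A_23_P501276, which the file also assigns to TUBB2B, gave 0.30 and -0.30. TUBB6 gave -1.19 and -0.76 by A_23_P254271, a mean of -0.97. Its other probe, A_24_P313756, gave 0.09 and -0.10, so the probes of TUBB6 disagree in this line.

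The remaining 19 probes had A2780s means from -0.38 to 0.37, with a median of -0.11 over all 21 members against -0.007 over all probes. TUBA4A, furthest from Ctrl in SKOV3, gave means of -0.08, 0.06, -0.11 and 0.17 by its probes in transcript order. TUBA1A gave -0.05 and -0.23, TUBA1B 0.10 and -0.46, and TUBG1 0.15 and -0.51. TUBB3 A_23_P77493 gave 0.14 and 0.60, higher on both arrays, with a mean of 0.37 under 1.5-fold. The arrays of each cell line were on a slide of their own, which leaves the line and its slide as effects that cannot be told apart, and the difference between the lines was not tested.

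The levels of the RNAs in each channel, scaled across the 6 arrays on the log2 scale, placed SKOV3 Ctrl highest of the 5 RNAs for 18 of 21 probes and above A2780s Ctrl for 19. The same counts were not made over all probes, so they are not shown to be particular to the tubulins. SKOV3 Ctrl overlapped the next RNA for TUBB A_23_P81912, both TUBB3 probes, TUBA1B and TUBA4A A_23_P84448. For TUBA1C A_24_P188071 its level came from 1 hybridization. TUBA4A A_23_P154065 had a level of 15.25 in SKOV3 Ctrl (14.55 to 15.95 over 4 hybridizations), 10.78 in sh-S1 (10.24 to 11.31), 10.73 in sh-S2 (10.43 to 11.04), 7.54 in A2780s Ctrl (7.39 to 7.69) and 7.72 in pCMV-Hic-5 (7.64 to 7.80), with 2 hybridizations for each RNA other than SKOV3 Ctrl. The ranges of sh-S1 and sh-S2 overlapped, as did those of the A2780s RNAs, and the 3 levels SKOV3 Ctrl, SKOV3 clones and A2780s were apart. These 3 levels were also apart for TUBA4A A_23_P154070 and A_23_P102109, but not for A_23_P84448. There SKOV3 Ctrl (10.14 to 11.37) overlapped sh-S1 (10.13 to 10.33) and sh-S2 (9.72 to 10.18). For TUBA1C A_23_P128154 the level was 16.14 in SKOV3 Ctrl (15.78 to 16.38), 14.41 in sh-S1, 14.53 in sh-S2 and 14.36 in both A2780s RNAs, and the ranges of each neighbour below SKOV3 Ctrl overlapped the next. For TUBA1A the order was SKOV3 Ctrl at 13.66, sh-S2 at 12.77, sh-S1 at 12.30, A2780s Ctrl at 12.03 and pCMV-Hic-5 at 11.90, with only sh-S1 and A2780s Ctrl overlapping as neighbours. For TUBA1B the order was 17.00 in SKOV3 Ctrl, 16.36 in A2780s Ctrl, 16.18 in pCMV-Hic-5, 15.83 in sh-S2 and 15.53 in sh-S1, and every neighbour overlapped the next.

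Among the beta isotypes, TUBB2A A_23_P19291 lay at 13.29 in SKOV3 Ctrl, 12.08 in sh-S1, 11.60 in sh-S2, 11.54 in A2780s Ctrl and 11.33 in pCMV-Hic-5, with only sh-S2 and A2780s Ctrl overlapping. TUBB3 A_23_P77493 lay at 12.33 in SKOV3 Ctrl, 12.12 in sh-S1, 10.46 in sh-S2, 10.27 in pCMV-Hic-5 and 9.90 in A2780s Ctrl, and sh-S1 overlapped SKOV3 Ctrl, sh-S2 overlapped pCMV-Hic-5 and the A2780s RNAs overlapped each other. By the other TUBB3 probe, A_24_P258633, the clones overlapped, at 11.49 to 12.31 in sh-S1 and 11.55 to 11.63 in sh-S2. TUBB A_32_P78528 lay at 13.29 in SKOV3 Ctrl, 12.60 in sh-S2, 12.47 in sh-S1, 11.83 in pCMV-Hic-5 and 11.82 in A2780s Ctrl, with overlap between the clones and between the A2780s RNAs. TUBB6 A_23_P254271 was the exception among the beta probes well above background in every RNA, with A2780s Ctrl at 15.20 above SKOV3 Ctrl at 15.04, ranges that overlapped, and sh-S2 lowest at 14.06. By the other TUBB6 probe, A_24_P313756, SKOV3 Ctrl at 14.52 lay above A2780s Ctrl at 12.88, so the probes disagree on this order. TUBB2B was highest in pCMV-Hic-5 at 8.85, followed by A2780s Ctrl at 7.18, whose ranges did not overlap, and the SKOV3 RNAs lay at 6.26 to 6.58, where most hybridizations were not well above background. TUBG1 lay between 9.18 and 9.65 in the 5 RNAs, each neighbour overlapping the next. A level cannot tell fewer transcripts per cell from fewer cells that carry them, and levels of different probes are not compared.

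**Figure D4:**
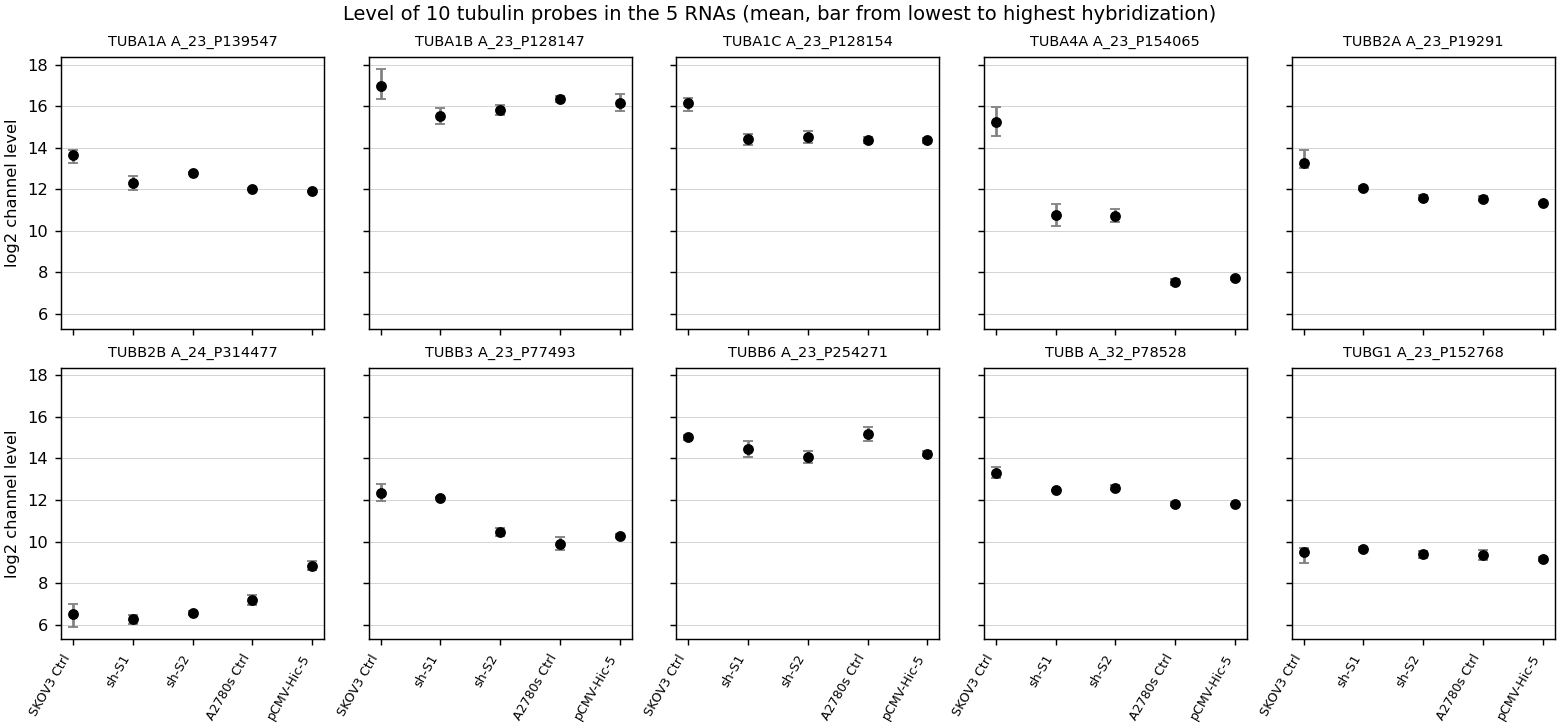
Log2 channel level (vertical axis) of 10 tubulin probes, 1 per gene, in the 5 RNAs (horizontal axis); points are means over hybridizations (4 for SKOV3 Ctrl, 2 for each other RNA) and bars run from the lowest to the highest. TUBA4A A_23_P154065 falls from 15.25 in SKOV3 Ctrl to below 11 in both clones and below 8 in A2780s, TUBB3 A_23_P77493 is lower in sh-S2 than in sh-S1, and TUBG1 is level. Probes of TUBA4A, TUBB3 and TUBB6 that are not shown differ from those shown, as given in the text.

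The rest of the tubulin family and its partners were read by the brightest tested probe of each gene, over lists of the pathway. Beside these lists, 4.16% of all 24958 tested SKOV3 probes were called lower and 2.98% higher. At an unadjusted p under 0.05 in limma, 5206 of the 24958 were lower and 5061 higher. In A2780s, 3.26% of 30531 probes were past 1.5-fold higher and 1.32% lower. Of 13 other tubulin genes, 10 were tested in SKOV3 and 3 were called lower, with a list median of -0.03. These were TUBB4B at -1.24 ± 0.04, a beta isotype of dividing and ciliated cells, and the near-identical alpha genes TUBA3C at -1.08 ± 0.01 and TUBA3D at -1.44 ± 0.20 (limma, adjusted p = 0.000152, 0.000267 and 0.000147). TUBA3C and TUBA3D are uncertain as separate genes because of their shared sequence, and the other probe of TUBA3D gave -0.14. The other TUBB4B probe gave -0.73, under 2-fold. Of the gamma-tubulin ring complex, 8 genes were tested with limma and 0 were called (1 higher and 2 lower at an unadjusted p under 0.05), with a median of -0.14 and the furthest value at 0.35 ± 0.26 for NEDD1, the subunit that recruits the complex to centrosomes (limma, adjusted p = 0.0624).

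Of 7 tubulin folding cofactors, 0 were called by limma (4 higher and 0 lower at an unadjusted p under 0.05), the median was 0.26, and the furthest was TBCA, which holds folded beta-tubulin, at 0.67 ± 0.18 (limma, adjusted p = 0.00342). Of 14 genes of the CCT chaperonin and prefoldin, which fold newly made tubulin and actin, 12 were tested, 1 was called higher and 0 lower, with a median of 0.31. The called gene was the CCT subunit CCT3 at 1.00 ± 0.52 (limma, adjusted p = 0.00501), just past 2-fold. Of 16 tubulin modifying enzymes, 15 were tested and 0 called by limma (6 higher and 3 lower at an unadjusted p under 0.05), with a median of 0.06 and the furthest at 0.96 ± 0.16 for AGBL5, a carboxypeptidase that removes glutamates from tubulin tails (limma, adjusted p = 0.000678). Another AGBL5 probe gave -0.16.

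Of 20 stathmins, microtubule-associated proteins and plus-end factors, 16 were tested, 1 was called higher and 2 lower, with a median of -0.05. The higher gene was STMN3, a tubulin-sequestering stathmin, at 2.48 ± 0.29 (limma, adjusted p = 2.45e-05), although another of its probes gave 0.32. The lower genes were MAP1B, which stabilises microtubules in growing neurites, at -2.15 ± 0.07 (limma, adjusted p = 1.55e-05), and CLIP1, a plus-end tracking protein, at -1.05 ± 0.12 (limma, adjusted p = 0.00039). Their other probes gave -1.14 for MAP1B and -0.51, under 2-fold, for CLIP1. Of 10 severing and depolymerising factors 0 were called by limma (1 higher and 5 lower at an unadjusted p under 0.05), with a median of -0.30 and the furthest at -0.94 ± 0.09 for the mitotic kinesin KIF18B (limma, adjusted p = 0.000556). In A2780s, 1 gene of the ring complex, MZT1 at 0.63, and 1 of the associated proteins, MAP1B at 0.91, were past 1.5-fold higher in pCMV-Hic-5, and 0 genes of these 7 lists were past it lower. MAP1B thus stood at -2.15 in SKOV3 and 0.91 in A2780s, a difference that was not tested.

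**Figure D5:**
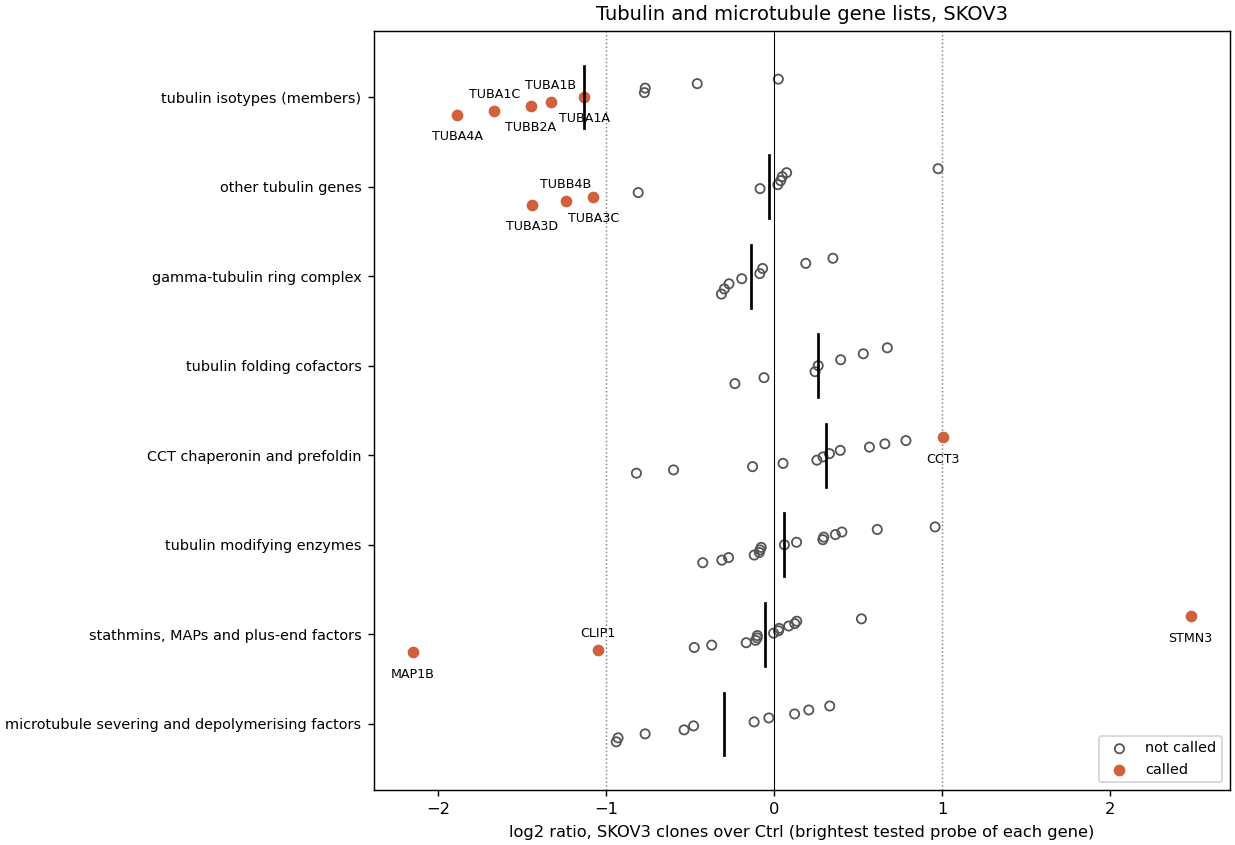
Log2 ratio of the SKOV3 clones over Ctrl (horizontal axis) for each gene of the tubulin and microtubule lists (rows), by its brightest tested probe; filled points were called and are named, open points were not, the black bar is the median of the list and dotted lines mark 2-fold. The median of the 10 isotypes lies at -1.13 over 9 tested genes, and those of the folding cofactors and chaperonin lie at 0.26 and 0.31.

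The genes whose 6 ratios lay nearest to those of the called members were found by Euclidean distance over the arrays, as a description. For TUBA1A they were CTSC and ECT2, at distances of 0.433 and 0.55. For TUBA1C they were TLE1 and SLC39A4, at 0.468 and 0.511, and for TUBA1B they were VSIG10L and ARNT2, at 0.581 and 0.633. For TUBB2A they were MOXD1 and SYNJ2, at 0.385 and 0.387. TUBA4A, by its brightest called probe A_23_P154070, had the most distant neighbours of the 5, HLA-B and PDXK at 0.881 and 0.933.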

How the data were processed

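Members and gene lists were chosen with earlier results of these data known. The authors deposited spot intensities in Cy3 and Cy5 as Agilent Feature Extraction wrote them (version 8.5.1.1 per the labels, 10.7.3.1 per the file headers), with local background and no normalization, and log10 ratios of Cy5 over Cy3 from processed signals; the deposited series values were checked and are the same log10 ratios, rounded.

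Local background was removed from the intensities with limma 3.58.1 (R 4.3.3) and its normexp method (offset 50), fitted on spots without background marks. Spots with outlier marks or a local background over 1000 were left out, each array was normalized by loess, and spots of 1 probe were averaged. The labelled dyes set the sign of each ratio, as modified clone against Ctrl. A probe was kept where Ctrl was well above background on all arrays of the line or a clone on both of its arrays. In SKOV3, dye swaps were averaged per clone and the mean of 2 clones was tested against 0 with limma and Benjamini-Hochberg adjustment over 24958 probes. In A2780s there was 1 replicate and no test. Channel levels were scaled by Aquantile. Genes were named by the files, and for the other lists by RefSeq accession (28078 of 41000 probes matched). All members were named with every probe; of other lists, called genes up to 4, otherwise the gene furthest from 0. Scripts were tested on simulated data. The sequences of some probes are not reported here. The number of arrays limits the precision.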

Additional observations from a re-analysis of the deposited data

How the results depend on the processing

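The counts of members were 9 lower and 0 higher in SKOV3 in the reported setting, and 7 to 12 lower and 0 higher under the other settings: processed signals of Feature Extraction (10 lower), median centring in place of loess (12), normexp fitted on all spots (9), no filter on dim probes (9), either dye orientation alone (12 for Cy5, 7 for Cy3), either clone alone by the 2-fold rule without a test (9 and 9), and outlier-marked spots kept (10, chosen after seeing the data). TUBG1, the single tested member with a mean above 0, changed sign from 0.03 to -0.049 with processed signals, -0.10 with median centring, and -0.10 with the clones in Cy5 alone, with an adjusted p in limma of 0.418 to 0.904 over the settings that gave one, and ranged from -0.015 to 0.065 with 1 clone left out.

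Of the called probes, TUBA1A (-0.83), TUBA1C A_23_P128161 (-0.93) and A_24_P58529 (-0.81) fell under 2-fold on the Cy3 arrays alone, TUBA1B (-0.44) on the Cy5 arrays alone, and TUBA1A and TUBA1C A_23_P128161 without sh-S1 (-0.81 and -0.90). TUBA4A A_23_P154065, A_23_P102109 and A_23_P154070, TUBA1C A_23_P128154 and TUBB2A A_23_P19291 were called under each of these settings or, with 1 clone left out, stayed past 2-fold. Uncalled probes that gained a call were TUBA4A A_23_P84448 with processed signals (-1.13), median centring (-1.01) and Cy5 alone (-1.03), TUBB6 A_24_P313756 with median centring (-1.04) and Cy3 alone (-1.27), TUBB3 A_23_P77493 with median centring (-1.24), and TUBB2A A_23_P501276 (just past 2-fold), TUBB3 A_24_P258633 (-1.27) and TUBB6 A_23_P254271 (-1.15) with Cy5 alone, and TUBB3 A_23_P77493 (-1.90) and TUBB6 A_23_P254271 passed 2-fold without sh-S1. In A2780s the members past 1.5-fold were 1 higher and 1 lower under all settings run except the Cy3 arrays alone, with 2 higher, the added probe being TUBB3 A_23_P77493 at 0.60. The TUBB2B mean of 1.66 ranged from 1.09 with normexp fitted on all spots to 1.97 with processed signals.

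Over all probes, the SKOV3 calls were 1964 higher and 2356 lower with processed signals, 1578 lower with median centring (from 743 and 1038), and 1222 higher on the Cy3 arrays alone, and with 1 clone left out they ranged from 788 to 836 higher and 984 to 1160 lower. In A2780s, 1797 were higher and 1519 lower on the Cy5 arrays alone, 214 were lower on the Cy3 arrays alone, and 693 were lower with processed signals, from 994 and 403. The causes were not tested. Reading each gene by the mean of its probes in place of the brightest changed no direction and no side of 2-fold for the 6 genes with more than 1 tested probe. The weak Cy5 signal in SKOV3 limits these ratios: the lowest member signal over background, TUBB2B aside, was 30.7 to 71.1 in Cy5 and 1200 to 1970 in Cy3.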
